A study of Mus musculus with 40 samples.

Results

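Kidney and lung of young adult mice were set against each other on 5 kidney arrays and 5 lung arrays, all from male C57BL/6 mice aged 8 weeks. These 10 arrays, chosen by their titles, are part of a series of 40 that also covers kidney and lung at 1 and 4 weeks and heart at 1 and 4 weeks, in 8 groups of 5. The labels give no genotype beyond the strain and no treatment, and class both organs at this age as proliferating very slowly. Biotin-labelled cRNA from total RNA of the organ was hybridised to Affymetrix mouse expression arrays. The series' design text gives 5 animals per age without saying whether a kidney and a lung came from the same animal. At 8 weeks only 3 of the numbers in the sample descriptions occur in both organs, which the figure of 5 animals does not explain. The question here was which genes separate the organs at this age, in which gene groups, and how far the difference was already present at 4 weeks.

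The kidney is built of nephrons. Blood is filtered across podocytes in the glomerulus, the proximal tubule takes back most of the solutes and proteins, the loop of Henle and the distal tubule dilute the urine and trim its salts, and the collecting duct sets its final water and acid content. In the lung, flat alveolar type 1 cells and a dense capillary bed carry gas exchange, alveolar type 2 cells make surfactant, and the conducting airways are lined by secretory and ciliated cells. Transport in the tubule is fed by mitochondrial respiration, whereas the lung is rich in elastic fibres, endothelium and immune cells.

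Signals are the intensities as deposited, in which every array has the same trimmed mean of 500. Differences are on the scale log2(signal + 16), kidney minus lung, with 1 probe set per gene, and a gene was called when its adjusted p was under 0.05. Arrays of the same organ correlated at 0.965 to 0.98 and arrays of different organs at 0.596 to 0.617 over the genes tested. The actin 3' to 5' log2 difference, a measure of RNA integrity, was 0.727 to 0.985 on kidney arrays and 0.39 to 0.555 on lung arrays and did not overlap between the organs. The same measure for Gapdh was -0.357 to -0.249 on kidney arrays and -0.442 to -0.187 on lung arrays and overlapped. The part of RNA integrity in the results was not tested. Array 5 of the kidney group had the largest actin difference, and many of the brightest kidney genes were highest on it. Array 3 of the lung group stood apart from the other 4 lung arrays in muscle, fat and plasma cell genes, described below, and results that rest on it are given with and without it. The tissue labels held against defining markers, with Umod and Slc12a1 bright on all 5 kidney arrays and Sftpc and Scgb1a1 on all 5 lung arrays, as given below. The number of arrays limits the precision, and p-values set a difference between groups against the spread between these samples within a group.

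The mean signal of at least 1 organ reached the floor of 117.9, the 40th percentile of all signals, for 14088 genes, and 10080 of these were called, which is 71.6% of the genes tested. Kidney was higher for 4646 genes (33%) and lung for 5434 (38.6%). The difference reached 2-fold for 1996 genes in favour of kidney (14.2%) and for 2609 in favour of lung (18.5%). Large differences leaned the other way, with 289 genes at least 16-fold higher in kidney (2.05%) against 131 in lung (0.93%), and 99 against 24 at 64-fold. Values of the 10 arrays did not overlap between the organs for 8279 of the called genes. The median over all genes tested was -0.06, and the median size of a difference was 0.61 on the log2 scale. Among the 16-fold genes, the dimmer organ lay under the floor for 205 of the 289 kidney genes and 89 of the 131 lung genes, and there the fold depends on the added 16 and understates the ratio of the signals. Centring each array on its median moved the median over all genes to 0.06, with 5338 genes called higher in kidney and 4736 in lung, so small differences depend on the scaling.

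**Figure D1:**
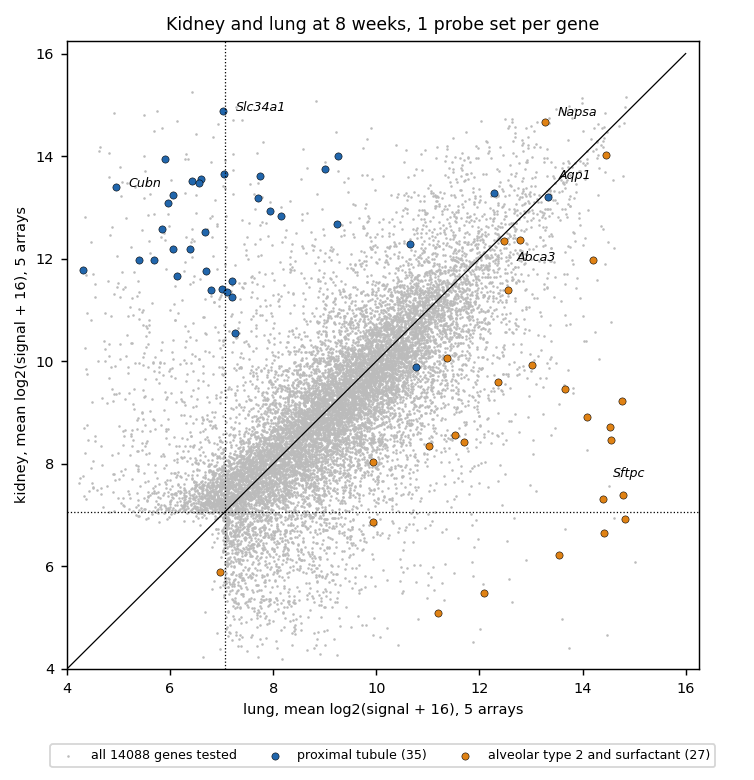
Mean log2(signal + 16) of 14088 genes on the 5 lung arrays (horizontal axis) and the 5 kidney arrays (vertical axis), 1 grey point per gene, with members of the proximal tubule list in blue and of the alveolar type 2 list in orange. The diagonal marks equal levels and the dotted lines the signal floor of 117.9. Proximal tubule genes gather in the upper left and alveolar type 2 genes in the lower right, with Aqp1, Napsa and Abca3 near the diagonal.

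Promoters were matched by symbol in RefSeq's table for GRCm38.p6, which holds 250 bases before and 50 bases after the start of a gene. Of the 100 genes highest in kidney 83 had an entry, of the 100 highest in lung 72, and of all genes tested and given a plain symbol 10760 of 13353. The letters searched, on both strands, were the core GTTAAT and the long palindromic site of HNF1, the factor family known for proximal tubule genes, CAAAGTCCA of HNF4, CTCAAG of NKX2-1, the lung epithelial factor, and TGTTTAC of forkhead factors. The long HNF1 site is the core joined to its near mirror image, so every match to it also contains the core. The 6 promoters shown are those of Umod and Slc34a1, higher in kidney, and of Slc34a2, Sftpa1 and Sftpb, higher in lung, together with that of Ugt3a1, which was higher in kidney and was chosen because it holds the long HNF1 site. Each line gives the 250 bases before the start, 5' to 3' on the gene's strand, with matches to the searched letters in capitals.
Umod (chr7:119479263-119479512, minus strand): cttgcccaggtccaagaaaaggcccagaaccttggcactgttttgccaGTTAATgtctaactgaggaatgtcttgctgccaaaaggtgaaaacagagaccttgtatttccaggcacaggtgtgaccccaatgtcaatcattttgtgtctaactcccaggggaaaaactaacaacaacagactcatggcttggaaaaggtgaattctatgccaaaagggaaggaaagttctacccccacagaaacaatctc
Slc34a1 (chr13:55399398-55399647, plus strand): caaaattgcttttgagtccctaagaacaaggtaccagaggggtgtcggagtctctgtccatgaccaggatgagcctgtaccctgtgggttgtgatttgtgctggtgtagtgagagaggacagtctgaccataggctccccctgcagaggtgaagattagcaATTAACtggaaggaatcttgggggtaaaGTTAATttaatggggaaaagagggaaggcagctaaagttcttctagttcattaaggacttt
Ugt3a1 (chr15:9279579-9279828, plus strand): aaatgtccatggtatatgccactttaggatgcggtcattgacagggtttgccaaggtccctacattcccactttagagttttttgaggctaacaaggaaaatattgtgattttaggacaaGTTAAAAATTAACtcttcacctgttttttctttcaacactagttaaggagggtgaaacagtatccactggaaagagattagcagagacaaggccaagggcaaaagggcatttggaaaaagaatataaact
Slc34a2 (chr5:53049103-53049352, plus strand): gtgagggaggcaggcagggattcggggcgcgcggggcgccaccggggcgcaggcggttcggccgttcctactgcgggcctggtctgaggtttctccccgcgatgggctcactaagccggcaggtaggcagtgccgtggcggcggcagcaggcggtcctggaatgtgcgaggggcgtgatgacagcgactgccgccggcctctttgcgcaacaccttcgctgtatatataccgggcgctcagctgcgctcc
Sftpa1 (chr14:41131538-41131787, plus strand): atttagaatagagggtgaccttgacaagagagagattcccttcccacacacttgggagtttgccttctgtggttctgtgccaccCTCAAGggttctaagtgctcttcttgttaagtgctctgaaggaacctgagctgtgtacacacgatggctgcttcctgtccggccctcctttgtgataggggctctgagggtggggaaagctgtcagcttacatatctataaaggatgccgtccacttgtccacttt
Sftpb (chr6:72304360-72304609, plus strand): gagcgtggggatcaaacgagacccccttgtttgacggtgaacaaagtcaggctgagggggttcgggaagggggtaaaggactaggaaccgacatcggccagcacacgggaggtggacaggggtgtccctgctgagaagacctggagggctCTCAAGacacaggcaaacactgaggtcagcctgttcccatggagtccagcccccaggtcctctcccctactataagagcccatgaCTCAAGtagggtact

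The HNF1 core was present in 24 of the 83 kidney promoters (28.9%), in 6 of the 72 lung promoters (8.33%) and in 5.81% of the promoters of all genes tested. Umod carries it with its first letter at base -202 and Slc34a1 carries it at -89 and -61, on opposite strands. The long HNF1 site was found in 1 kidney promoter, that of Ugt3a1 at -130, and in 3 of the 10760 promoters of all genes tested. The HNF4 letters were in 4 of the 83 kidney promoters (4.82%), in none of the 72 lung promoters and in 0.623% of all. The NKX2-1 core was in 18 of the 72 lung promoters (25%), in 12 of the 83 kidney promoters (14.5%) and in 16.6% of all, and it lies at -166 in Sftpa1 and at -100 and -15 in Sftpb. Forkhead letters were in 10.8% of the kidney and 5.56% of the lung promoters, against 3.23% of all. A match describes the letters in the window, and binding of a factor there was not measured.

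On the scale with 16 added the gene with the largest difference was Umod, which encodes uromodulin, the most abundant protein of normal urine, made in the thick ascending limb. Its signal on kidney arrays 1 to 5 was 29995, 26972, 25486, 27645 and 39080.4, and on lung arrays 1 to 5 it was 3.2, 12.7, 12.5, 22.7 and 23.8. Kidney was 984-fold higher (log2 difference 9.94, SE 0.20, adjusted p = 4.5e-12). Hao2, a peroxisomal hydroxyacid oxidase, gave 18227, 17050.2, 17932, 17374 and 22389 in kidney and 3.1, 15.3, 5.6, 7.5 and 16.2 in lung. Cyp2j5, a cytochrome P450 that oxidises arachidonic acid, gave 16068, 17248, 15362, 16534 and 22919 in kidney and 7.1, 12.6, 4.2, 11.3 and 8.6 in lung. In all 3 genes every lung signal was under the floor and every kidney signal far above it. The order of such genes depends on the added constant, and with 1 added in place of 16 Umod read 11.09, Ager -11.12 and Chil3 -11.13. Klk1, tissue kallikrein, followed at 634-fold, though its probe set is of a type that can also read related kallikreins. The other genes among the 15 with the largest kidney differences were Cltrn (collectrin, which escorts amino acid transporters), Fxyd2 (a subunit of the sodium pump), Miox (myo-inositol oxygenase), Dnase1, Cyp2d26, Aadat (an aminotransferase of the kynurenine and lysine pathways), Spink1, Slc27a2 (a fatty acid transporter and acyl-CoA synthetase), Pdzk1 (a brush border scaffold), Kng1 (kininogen) and Cubn (cubilin, a receptor for filtered proteins). Their folds ran from 351 for Cubn to 604 for Cltrn.

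The largest lung difference on the same scale was that of Ager, the receptor for advanced glycation end products and a membrane protein of alveolar type 1 cells. Its signal was 20721, 24240.0, 23325, 24945 and 21385 on lung arrays 1 to 5 and 11.5, 9.5, 8.8, 8 and 8.8 on kidney arrays 1 to 5. Lung was 905-fold higher (log2 difference -9.82, SE 0.08, adjusted p = 1.4e-14). Chil3, a chitinase-like protein of alveolar macrophages, gave 13209, 15059, 12932, 13385 and 13349 in lung and 4.8, 2.9, 5.6, 6 and 6.7 in kidney. Scgb1a1, the club cell secretoglobin, gave 30047, 33145, 34895, 35677 and 31986 in lung and 20.4, 34.4, 55.6, 94.4 and 82.3 in kidney. Within each of these genes the lung arrays lay within a narrow band, and the kidney arrays were all under the floor. The rest of the 15 largest lung differences were Hp (haptoglobin), Sftpa1, Sftpc and Sftpd (surfactant proteins), Cxcl15 (lungkine), Scgb3a2, Fendrr (a long noncoding RNA next to Foxf1), Hc (complement C5), Lyve1, Mfap4 (a microfibril protein), Cbr2 and Cyp2f2, between 123-fold and 399.6-fold higher in lung.

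Proximal tubule genes were higher in kidney almost throughout. Of 36 transport and uptake genes listed, 35 were tested, 33 were called higher in kidney and all 33 by at least 2-fold, against 1 higher in lung and 1 not called, with a median log2 difference of 5.54. The same median over all genes tested was -0.06, and 33% of them were called higher in kidney. Slc34a1, the main sodium phosphate cotransporter of the brush border, gave 30074, 27651, 25530.1, 29503 and 38878 in kidney and 126, 104, 114, 136 and 99.3 in lung, a 229-fold difference (SE 0.12 log2, adjusted p = 1.0e-12). Slc22a8, an organic anion transporter, was 262-fold higher in kidney, and Slc22a19, of the same family, was 178-fold higher. Lrp2, megalin, which works with cubilin in protein uptake, was 26.9-fold higher, with lung signals of 544 to 655 that lay above the floor. The exceptions were Slco4c1, an organic anion transporter 1.84-fold higher in lung, and Aqp1, the water channel of the proximal tubule and of capillaries. The call of Slco4c1 was lost in 1 fit over all 40 arrays of the series, which share 1 estimate of the spread (adjusted p = 0.32). That fit includes 2 arrays from 1 week of age that stood apart, heart array 5 and lung array 4. Without these 2 arrays Slco4c1 stayed called. Of the named genes whose calls the fit over all 40 arrays lost, only Arl16, Col4a4 and Cyp11b1 then stayed uncalled. Aqp1 gave 12687, 9728, 7629, 10077 and 7842 in kidney and 8917, 11310.2, 10895, 10459 and 10077 in lung, with overlapping arrays and an adjusted p of 0.42 (log2 difference -0.13, SE 0.14), though quantile normalization called it higher in lung (-0.45, adjusted p = 0.016).

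The loop of Henle and distal convoluted tubule list had 19 genes tested, of which 16 were higher in kidney, 1 in lung and 2 not called, with a median of 4.13. Slc12a1, the furosemide-sensitive cotransporter of the thick ascending limb, gave 20483, 19595, 18844, 21316 and 27342 in kidney and 128, 128, 73.5, 86.6 and 85.9 in lung. Slc12a3, its thiazide-sensitive counterpart in the distal convoluted tubule, gave 10869, 10509, 10946, 11475 and 10219 in kidney and 30, 17, 21, 34.3 and 18.9 in lung. Neither overlapped between the organs, and the differences were 187-fold and 272-fold. Calb1, the calcium carrier calbindin, was 213-fold higher in kidney, and Egf, made in the distal nephron as a membrane precursor, 208-fold. Trpm6, a magnesium channel, was 1.51-fold higher in lung (adjusted p = 5.6e-05). Its call was lost in the fit over all 40 arrays (adjusted p = 0.053) but kept there without the 2 arrays from 1 week of age. Pvalb, with log2 difference 0.70 and adjusted p = 0.3, and Wnk1, with 0.20 and adjusted p = 0.063, were not called. The mean of all probe sets of Wnk1 read -1.12 (adjusted p = 0.00026), whereas it was called higher in kidney under 4 others of 25 alternative settings, at up to 0.31. Pvalb, which muscle also makes, ran from 174 to 2985 within lung with array 3 highest. Without that array Pvalb was called higher in kidney at 1.29 (adjusted p = 0.0077), and the list had 17 genes called higher in kidney.

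In the collecting duct list 19 of 25 genes tested were higher in kidney, 5 were higher in lung and 1 was not called, with a median of 3.30. Rhcg, an ammonia channel of acid-secreting cells, gave 2424, 1895, 2131, 2090.0 and 1706 in kidney and 36.3, 31, 25.9, 23 and 28.2 in lung, and was 45.9-fold higher in kidney (adjusted p = 5.4e-12). Hsd11b2, which shields the mineralocorticoid receptor from cortisol and corticosterone, was 24.2-fold higher, and Slc4a9, an anion exchanger of intercalated cells, 24.2-fold. The proton pump subunits Atp6v0a4 and Atp6v1b1, both typical of intercalated cells, were 19.5-fold and 13.5-fold higher in kidney. The epithelial sodium channel, which both organs use to absorb sodium, went the other way with all 3 subunits. Scnn1a was 1.65-fold, Scnn1b 1.68-fold and Scnn1g 2.68-fold higher in lung, with adjusted p of 0.00029, 1.9e-05 and 1.9e-07. Scnn1g gave 934, 1092, 911, 887 and 905 in kidney and 2059.7, 2649, 2631, 2577 and 2934 in lung, and no array overlapped in any of the 3 genes. In the fit over all 40 arrays none of the 3 was called. Without the 2 arrays from 1 week of age that stood apart, that fit called all 3.

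Podocyte genes were split. Of 17 tested, 6 were higher in kidney and 11 in lung, with a median of -0.96. Over all genes tested 33% were called higher in kidney and 38.6% in lung. Nphs1, nephrin of the slit diaphragm, gave 492, 488, 592, 575 and 387 in kidney and 93.3, 121, 69.8, 122 and 83.1 in lung, 4.62-fold higher in kidney (adjusted p = 1.6e-07). Foxc2, a transcription factor of podocytes, was 5.47-fold higher in kidney and Wt1 1.97-fold. Clic5, a chloride channel protein listed for podocytes and for alveolar type 1 cells alike, gave 1303, 1284, 1207, 1249 and 1334 in kidney and 6900.4, 7484, 6156, 6998 and 8225 in lung, and Plce1, a phospholipase, was 3.87-fold higher in lung. In RNA of a whole tissue a difference in the number of cells of a type and a difference in RNA per cell cannot be told apart.

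Genes of renal hormone systems were mostly higher in kidney, with 11 of 13 tested, 1 in lung and 1 not called. Kl, klotho, the coreceptor for the phosphate hormone FGF23, gave 9513, 9013, 9706, 10261 and 9293 in kidney and 6.3, 42.6, 44.9, 6.4 and 6.3 in lung, a 289-fold difference. Cyp27b1, which activates vitamin D, and Cyp24a1, which inactivates it, were 24.4-fold and 21.1-fold higher in kidney, and kidney array 2 had the lowest Cyp24a1 among kidneys at 485 against 1264 to 1582. Agt, angiotensinogen, gave 1069, 888, 1207, 1093 and 959.9 in kidney and 11.2, 23.7, 9.2, 27.6 and 15.4 in lung. Ace, the angiotensin-converting enzyme, was the exception, with 1420.0, 1096, 1162, 1359.9 and 1158 in kidney and 3986, 5529, 5792, 4558 and 5754 in lung, 4.07-fold higher in lung (SE 0.12 log2, adjusted p = 4.5e-08).

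On the lung side, alveolar type 2 and surfactant genes were higher in lung for 24 of 27 tested, 22 of them by at least 2-fold, with 1 higher in kidney, 2 not called and a median of -3.10, where 38.6% of all genes tested were called higher in lung. Sftpc, the surfactant protein made by type 2 cells alone among lung cells, gave 24753, 30856, 31142, 30041 and 25662 on lung arrays and 98.5, 158, 189, 156 and 175 on kidney arrays. Sftpb, whose promoter is shown above, gave 22814, 26144, 22509, 23871 and 23290.1 in lung and 342, 287, 496, 327 and 692 in kidney. Sftpa1 was 239-fold and Cxcl15 216-fold higher in lung. All kidney values of Sftpb lay above the floor of 117.9, and those of Sftpc lay on both sides of it.

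Napsa and Abca3, which are widely used as type 2 cell markers, were not called higher in lung with the probe set used for each. Napsa, the protease that trims surfactant proteins, gave 27703, 23997, 21603, 24431 and 34529 in kidney and 8510.4, 11659.7, 9654, 9553 and 10236 in lung, 2.64-fold higher in kidney (adjusted p = 1.8e-06), a call lost in the fit over all 40 arrays. The call of Napsa was kept in that fit without the 2 arrays from 1 week of age. Another, dimmer probe set of Napsa read -0.23 on the log2 scale, so the probe sets differ in sign. Abca3, the lipid transporter of lamellar bodies, gave 4622, 4764, 4917, 5281 and 6635 in kidney and 5427, 5909, 5297, 6302 and 5429 in lung, with overlapping arrays, a log2 difference of -0.12 and an adjusted p of 0.32. Abca3 was called higher in lung under 3 of 25 alternative settings, which were quantile normalization (-0.40, adjusted p = 0.0018), the mean of its probe sets and leaving out kidney array 5. Slc27a3, of the fatty acid transport protein family and the other listed gene not called, had a log2 difference of -1.08 and an adjusted p of 0.068. It was called higher in lung under 6 of 21 alternative settings, among them without lung array 1, its lowest lung array (-1.48, adjusted p = 0.0057), and without kidney array 1 or 3.

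Alveolar type 1 genes were higher in lung for 22 of 24 tested, all 22 by at least 2-fold, with a median of -3.96. Cldn18, a tight junction protein, gave 5162, 6682, 6008, 6430.0 and 6313 in lung and 21.8, 40.8, 49.9, 26.8 and 59.3 in kidney. Aqp5, the water channel of type 1 cells and glands, was 85.2-fold higher in lung, Cyp2b10 65.8-fold, and Hopx, a homeodomain protein, 19.5-fold. The members higher in kidney were Col4a3 and Col4a4, chains of the collagen IV network shared by the glomerular and alveolar basement membranes, at 1.51-fold and 1.27-fold (adjusted p = 0.0016 and 0.0028). Both calls were lost in the fit over all 40 arrays (adjusted p = 0.27 and 0.74). Without the 2 arrays from 1 week of age that stood apart, that of Col4a3 was kept and that of Col4a4 was not. The call of Col4a4 was also lost with the mean of its probe sets.

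Airway secretory genes were higher in lung for 19 of 23 tested, with 4 higher in kidney and a median of -3.76. Scgb3a2 gave 23882, 26011, 23745, 28847 and 23172 in lung and 164, 161, 86.3, 119 and 49.1 in kidney. The 4 members higher in kidney were Sult1d1 and Ces1f, a sulfotransferase and a carboxylesterase, the claudin Cldn10, which is also on the loop of Henle list, and Pigr, the receptor that carries immunoglobulin A across epithelia, at 17.5-fold, 9.25-fold, 6.41-fold and 2.53-fold. Bpifa1, a secreted protein of the large airways, varied within lung from 681 on array 3 to 11155 on array 1, and all 5 values lay above those of kidney, which were 27.9 to 90.7, with a log2 difference of -5.77, or -6.37 without array 3. Genes of motile cilia were higher in lung for 30 of 30 tested and 25 of them by at least 2-fold, at a median of -2.16. Tppp3, a tubulin-binding protein, was 53-fold higher, Rsph1, of the radial spoke, 22-fold, and Foxj1, the master factor of motile cilia, 4.34-fold.

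**Figure D2:**
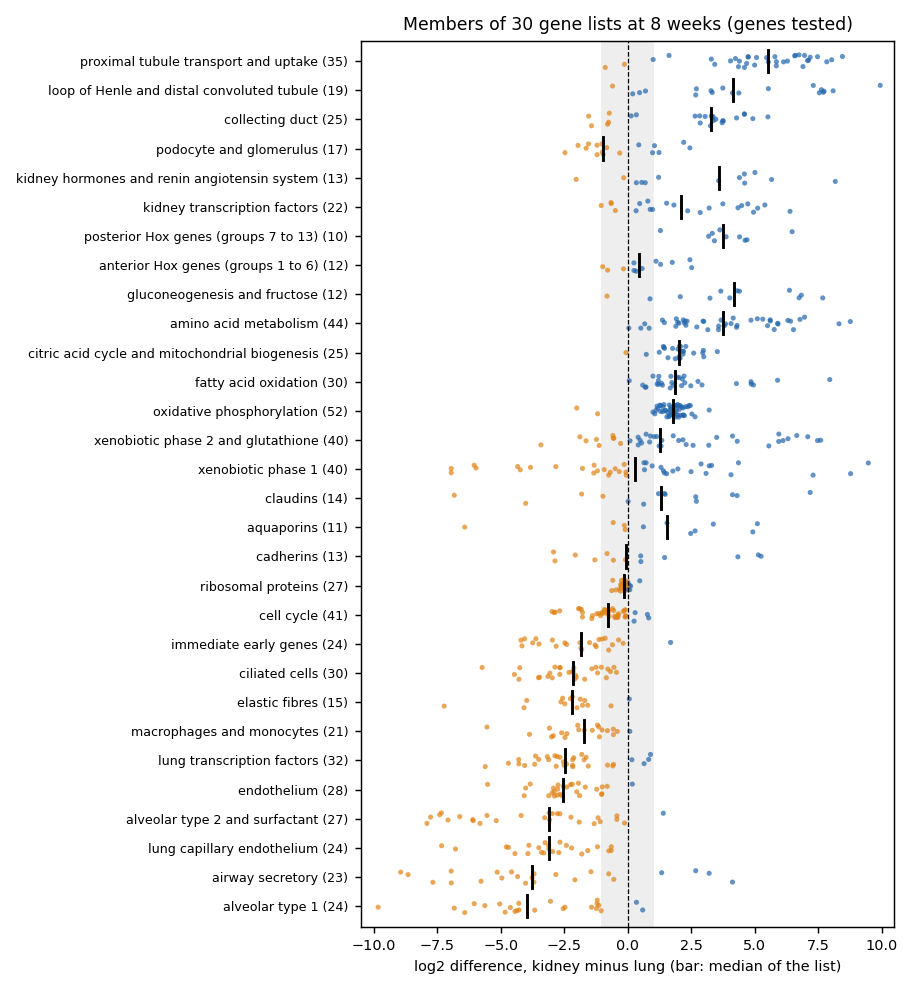
Log2 differences (kidney minus lung, 8 weeks) of the tested members of 30 gene lists, 1 point per gene, with a bar at each list's median. The dashed line marks 0 and the grey band differences under 2-fold. Proximal tubule and distal nephron lists lie to the right, ciliated cell and endothelial lists to the left, and podocyte, cadherin and phase 1 lists lie on both sides.

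Transcription factors named for each organ lay mostly on its side. Among lung factors 28 of 32 tested were higher in lung, 3 in kidney and 1 was not called, with a median of -2.45. Tbx4, a T-box factor of lung mesenchyme, gave 2223, 2655, 2309, 2400.1 and 2774 in lung and 29.9, 51.9, 84.3, 39.1 and 3.9 in kidney. Foxf1, the forkhead factor of lung capillaries and mesenchyme, gave 5528, 5626, 4745, 5620.0 and 4837 in lung and 169.5, 195, 210.4, 181 and 185 in kidney, a 25.9-fold difference. Sox2, of airway epithelium, was 19.5-fold higher in lung. Nkx2-1, the defining factor of lung epithelium, was dim on this array, with 124, 158, 165, 157 and 191 in lung and 12.7, 87.1, 90.2, 14.3 and 27.5 in kidney, 3.28-fold higher in lung (adjusted p = 0.0014). Id2, Foxm1 and Nr2f2 were the listed lung factors higher in kidney, at 1.87-fold, 1.77-fold and 1.57-fold, and the call of Foxm1 was lost with the mean of its probe sets.

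Among kidney factors 17 of 22 tested were higher in kidney, 4 in lung and 1 was not called, with a median of 2.09. Hnf4a, the nuclear receptor of the proximal tubule, gave 10336, 10082, 10699, 11097 and 12472 in kidney and 237, 149, 49.3, 58.1 and 169 in lung, an 84-fold difference (adjusted p = 1.1e-08). Emx2, a homeodomain factor needed for kidney development, was 42.3-fold higher, Nr1h4, the bile acid receptor, 34.7-fold, Ppara, the regulator of fatty acid oxidation, 31-fold, and Pax8 9.25-fold. The 4 listed factors higher in lung were Irx1, Irx2, Irx3 and Grhl2, each called and between 1.4-fold and 2.06-fold, though Grhl2 read 0.23 with the mean of its probe sets (adjusted p = 0.059).

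Hox genes record position along the body axis. All 10 posterior genes tested, out of 21 listed for groups 7 to 13, were higher in kidney by at least 2-fold, with a median of 3.75. Of the 21, 18 were on the array, and the untested ones among these were under the floor in both organs. A gene under the floor in lung could enter only through its kidney signal, so the count is partly set by that filter. Under the same filter 14.2% of all genes tested were called at least 2-fold higher in kidney. Hoxa9 gave 2612, 2732, 2619.5, 2754 and 3238 in kidney and 9, 21.7, 8.2, 4.8 and 48.9 in lung, an 89-fold difference. Hoxd9, Hoxd8 and Hoxd10 were 26-fold, 24.6-fold and 21.2-fold higher, and Hoxa11, the lowest of the 10, 2.45-fold. Of 12 anterior genes tested, out of 18 listed for groups 1 to 6, 6 were higher in kidney, 2 in lung and 4 were not called. Their median was 0.45, and 33% of all genes tested were called higher in kidney and 38.6% in lung. Hoxa5, a gene with a role in lung development, gave 845, 1106, 1470.3, 1208 and 1096 in kidney and 919.6, 1019, 819, 996 and 1001 in lung and was not called (adjusted p = 0.12), with probe sets that differ in sign. The probe set brightest on these 10 arrays read -0.38 (adjusted p = 0.0085), whereas Hoxa5 was called higher in kidney under 4 others of 25 alternative settings, among them without kidney array 1, at up to 0.44. Hoxb5 was not called either (log2 difference -0.16, adjusted p = 0.32), whereas Hoxa2 and Hoxa4 were 1.97-fold and 1.73-fold higher in lung. The call of Hoxa4 was lost in the fit over all 40 arrays (adjusted p = 0.075). It was kept there without the 2 arrays from 1 week of age.

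**Figure D3:**
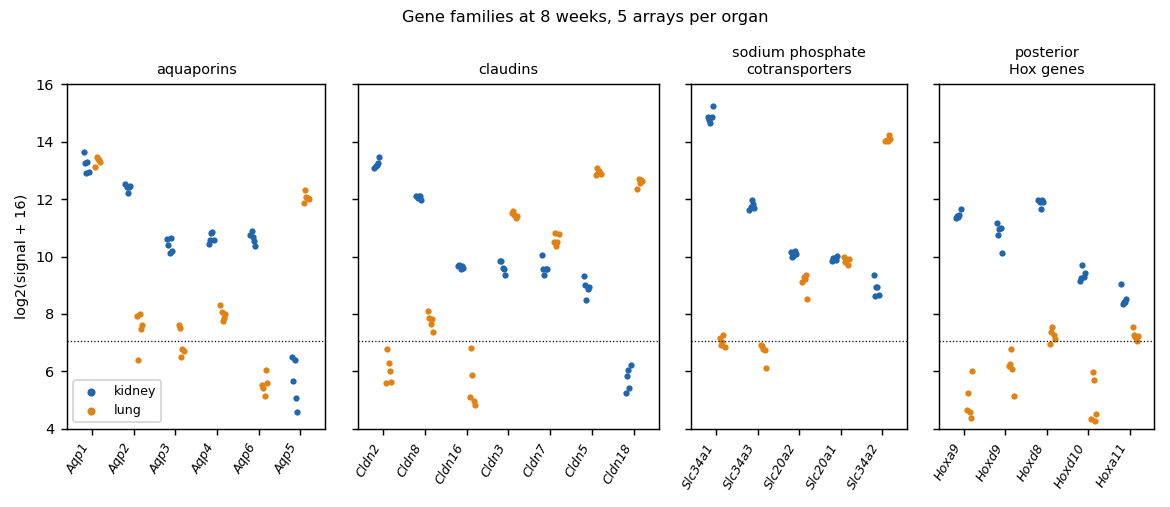
Signals on a log2(signal + 16) axis of aquaporins, claudins, sodium phosphate cotransporters and posterior Hox genes, with 5 kidney arrays (blue) and 5 lung arrays (orange) as points for each gene and the floor of 117.9 as a dotted line. In each of the first 3 families at least 1 member is high in lung and much lower in kidney, while the 5 Hox genes are all higher in kidney.

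Several gene families had members on both sides. So did all genes tested, with 33% called higher in kidney and 38.6% in lung. Of the 7 sodium phosphate cotransporters tested, 5 were higher in kidney, 1 in lung and 1 was not called. Slc34a2, the type 2 cell member of the family of Slc34a1, gave 16559.6, 17055, 16517, 19131 and 17343 in lung and 645, 376, 479.7, 475 and 391 in kidney, 36-fold higher in lung (adjusted p = 3.2e-11), and Slc34a3 was 33.7-fold higher in kidney. The widely expressed Slc20a2 was 1.98-fold higher in kidney, and Slc20a1 gave 901, 979, 979.6, 929 and 1032 in kidney and 1009, 885, 951, 816 and 954 in lung, not called with an adjusted p of 0.48. Aquaporins had 6 of 11 tested higher in kidney, 1 in lung, Aqp5, and 4 not called. Aqp2, the channel that vasopressin moves to the membrane, gave 5965, 5421, 4698, 5519 and 5684 in kidney and 229, 67.8, 238, 163 and 182 in lung, and Aqp6, of intercalated cells, was 34.5-fold higher in kidney. Aqp3 and Aqp4, which let water out of collecting duct cells, were 10.4-fold and 6.3-fold higher.

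Claudins, which set the permeability of tight junctions, had 9 of 14 tested higher in kidney, 4 in lung and 1 not called. Cldn2, of the leaky proximal tubule, gave 8743, 9226, 9356, 9874 and 11429 in kidney and 32.7, 93, 61.6, 48.1 and 33.9 in lung, and Cldn8 and Cldn16, of the distal nephron, were 19.8-fold and 17.5-fold higher in kidney. Cldn5, of endothelium, gave 7378, 8648, 7619, 8016 and 7489.5 in lung and 619, 504, 342, 449 and 472 in kidney, while Cldn3 and Cldn7 were 3.51-fold and 1.96-fold higher in lung. Cadherins had 6 of 13 tested higher in each organ and 1 not called. The claudin and cadherin counts stand beside 33% of all genes tested called higher in kidney and 38.6% in lung. Cdh16, kidney-specific cadherin, was 38.1-fold higher in kidney and the brush border protocadherin Cdhr5 35.3-fold, whereas Cdh5, of endothelium, was 7.56-fold and the ciliated cell gene Cdhr3 7.27-fold higher in lung. Cdh1, E-cadherin, common to epithelia of both organs, was 1.75-fold higher in lung. The calls of Cdh1 and Cldn7 were lost in the fit over all 40 arrays (adjusted p = 0.46 and 0.15). Both were kept there without the 2 arrays from 1 week of age.

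Nearly all tested genes of the mitochondrial, peroxisomal, gluconeogenic and amino acid lists were higher in kidney. Of 52 genes of oxidative phosphorylation tested, 50 were higher in kidney, 49 by at least 2-fold, and 2 in lung, with a median of 1.80. Atp5g1, a ring subunit of ATP synthase, gave 7334, 8878, 7097, 8440.3 and 9113 in kidney and 822, 835, 1109.8, 796 and 795 in lung, and Cox8a, of cytochrome oxidase, was 6.3-fold higher in kidney. The 2 exceptions were Cox4i2, the lung and pericyte form of a cytochrome oxidase subunit, 2.27-fold higher in lung, and Cox8b, the muscle form of Cox8a, 4.01-fold higher. Cox8b was highest on lung arrays 3, at 412, and 1, at 258, the arrays with the highest muscle gene levels, and it was 255 on array 5. Its call was lost in the fit over all 40 arrays (adjusted p = 0.072) but kept there without the 2 arrays from 1 week of age. The citric acid cycle list had 24 of 25 genes higher in kidney and none in lung (median 2.04), with Idh1 11.6-fold and Ppargc1a, the coactivator of mitochondrial biogenesis, 7.89-fold.

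Fatty acid oxidation had 29 of 30 genes higher in kidney and none in lung (median 1.88), and peroxisomes 22 of 23 and none (median 1.16). Cyp4a14, a fatty acid hydroxylase under PPARα, gave 10923, 12427, 11267, 11396 and 12061 in kidney and 67.4, 6.3, 45.3, 13.1 and 51.6 in lung. Ehhadh, the peroxisomal bifunctional enzyme, was 59.8-fold higher. Gluconeogenesis and fructose use had 11 of 12 genes higher in kidney and 1 in lung (median 4.17). Fbp1, fructose bisphosphatase, gave 29958, 29699, 27659, 31682 and 40711 in kidney and 177, 138, 108, 122 and 157 in lung, and G6pc, which releases free glucose, gave 17436, 15738, 16479.8, 16963 and 18029.5 in kidney and 154, 123, 109, 128 and 152 in lung. The 1 gene higher in lung was Pck2, the mitochondrial form of Pck1, at 1.75-fold. Pck1 itself ran from 23.9 to 1176 within lung, highest on array 3, and it was 82.6-fold higher in kidney with all arrays, 128-fold without lung array 3 and 54.9-fold without lung array 2.

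Amino acid metabolism had 43 of 44 genes tested higher in kidney, 40 by at least 2-fold and 20 by at least 16-fold, none in lung and a median of 3.74. Hgd, of tyrosine breakdown, gave 10397, 11338, 10841, 11273 and 13208 in kidney and 18.3, 59.3, 13.5, 10.7 and 12.4 in lung. Aadat was 435-fold, Bhmt2, a methyltransferase of homocysteine metabolism, 125-fold, and Gldc, of the glycine cleavage system, 110.1-fold higher. Tat was the gene not called, with a log2 difference of 0.05 (adjusted p = 0.83). Glycolysis was divided, with 13 of 20 genes higher in kidney, 5 in lung and 2 not called. The shares of all genes tested were 33% higher in kidney and 38.6% in lung. Ldhb, the heart form of lactate dehydrogenase, was 8.97-fold higher in kidney, and Hk2, an inducible hexokinase, 4.84-fold higher in lung.

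Enzymes of foreign compound metabolism had members higher in each organ. Phase 1 enzymes, which oxidise and reduce, had 20 of 40 tested higher in kidney, 17 in lung and 3 not called. For comparison, 33% of all genes tested were called higher in kidney and 38.6% in lung. Cyp2d26 gave 12508, 11647, 12173, 12068 and 13317 in kidney and 7.5, 20.3, 11.1, 18.8 and 6 in lung, and Akr1c21, a steroid dehydrogenase, was 158-fold higher in kidney. Cyp2f2, the club cell P450 that activates naphthalene, gave 22304, 23864, 23393, 25333 and 21739 in lung and 165, 192, 171, 185 and 156 in kidney, and Cbr2, a lung carbonyl reductase, gave 24731, 27988, 26559, 29485 and 25520.4 in lung and 249, 223, 202, 216 and 136 in kidney. The flavin monooxygenase Fmo1 was 1.96-fold higher in kidney and Fmo2 1.68-fold higher in lung. The call of Fmo2 was lost in the fit over all 40 arrays (adjusted p = 0.18). It was kept there without the 2 arrays from 1 week of age. Phase 2 and glutathione genes had 30 of 40 higher in kidney, 9 in lung and 1 not called (median 1.28), led by Glyat, which conjugates glycine, at 194-fold, and Keg1 at 178-fold. Ugt3a1, the glycosyltransferase with the long HNF1 site above, was 61.6-fold and Ugt3a2 136-fold higher in kidney.

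Endothelial genes were higher in lung for 27 of 28 tested, 25 by at least 2-fold, with none higher in kidney and a median of -2.56. Vwf, von Willebrand factor, gave 3698, 3846, 3608, 3875 and 3952 in lung and 70.9, 85.5, 62.4, 57 and 64.4 in kidney, and Pecam1 was 7.38-fold higher in lung. Emcn, endomucin, was the gene not called (log2 difference 0.18, adjusted p = 0.072), though it was called higher in kidney under 3 of 25 alternative settings, among them median centring (0.30, adjusted p = 0.014) and leaving out kidney array 2. All 24 genes of the lung capillary list were higher in lung (median -3.10), with Tmem100 giving 7449.8, 8552, 6756, 7368 and 8180.3 in lung and 37.3, 56.4, 34.4, 70.7 and 82.1 in kidney. Lyve1, better known from lymphatic vessels, was 160.1-fold higher.

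Matrix genes followed the same direction. Elastic fibre genes had 14 of 15 tested higher in lung, none in kidney and a median of -2.18. Mfap4 gave 3119, 4068, 4445, 3651 and 5543 in lung and 11.7, 8.2, 10.3, 8.2 and 20.8 in kidney, and Eln, elastin, was 5.55-fold higher in lung. Fibroblast and collagen genes had 27 of 32 higher in lung and 5 in kidney, among them Vim, the intermediate filament vimentin, 12.5-fold higher in lung. The 5 higher in kidney were Col18a1, Col15a1, Col4a3, Col4a4 and Col14a1, at 1.22-fold to 3.67-fold, and the call of Col14a1 was lost under 11 of 25 alternative settings. Of 18 laminin and other basement membrane genes, 11 were higher in lung, 4 in kidney and 3 were not called. Lama4, of vessels, was 14.1-fold and Lamb3, of epithelia, 8.02-fold higher in lung, and Frem2, needed for kidney formation, 3.3-fold higher in kidney.

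Immune cell genes were mostly higher in lung. Macrophage and monocyte genes had 20 of 21 tested higher in lung and none in kidney, T and NK cell genes 16 of 20 and none, antigen presentation genes 18 of 18, and alveolar macrophage genes 16 of 19 with 1, Lpl, higher in kidney. Siglecf, of alveolar macrophages and eosinophils, was 24.2-fold and Lyz2, lysozyme, 46.4-fold higher in lung. Cd3d, of the T cell receptor complex, was 10.4-fold higher, and H2-Ob, of antigen loading in B cells, 8.86-fold. B and plasma cell genes had 14 of 18 higher in lung, 11 by at least 2-fold, and 9 at 2-fold without lung array 3. Neutrophil and granulocyte genes had 8 of 11 higher in lung and 1 in kidney, with S100a9, a calcium-binding protein of these cells, 24.9-fold higher in lung. Blnk, an adaptor of B cell signalling, was the B cell gene higher in kidney, at 3.35-fold.

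Secreted and inducible immune genes were more mixed. Their counts stand beside 38.6% of all genes tested called higher in lung and 33% in kidney. Chemokine genes had 10 of 21 tested higher in lung, 5 in kidney and 6 not called, with Ccl6, of macrophages, giving 5172, 5906, 6619, 4813 and 5204 in lung and 135, 151, 124, 99 and 154 in kidney. Complement and coagulation genes had 16 of 27 higher in lung and 9 in kidney, with Thbd, thrombomodulin of the vessel wall, 17.1-fold higher in lung. Interferon response genes had 17 of 21 higher in lung and 2 in kidney. Ifi35 was 3.45-fold higher in lung, and Rsad2, the antiviral protein viperin, gave 2123, 2123, 2249, 2066 and 2172 in kidney and 615, 705, 729.8, 815 and 623 in lung, 3.05-fold higher in kidney (adjusted p = 1.6e-08).

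Smooth muscle and pericyte genes had 16 of 20 tested higher in lung, 1 in kidney and 3 not called, with a median of -1.47. Postn, the matrix protein periostin, gave 8519.5, 9104, 7776, 8092 and 8832 in lung and 216, 271, 339.9, 261 and 299 in kidney. Hhip, an inhibitor of hedgehog signalling, was 12.6-fold and Cnn1, calponin of contractile cells, 9.09-fold higher in lung. Mesothelial genes had 11 of 13 higher in lung and 2 in kidney, with Msln, mesothelin of the pleural lining, 12.6-fold higher in lung.

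Of 29 genes of cholesterol and lipid synthesis tested, 14 were higher in lung, 7 in kidney and 8 were not called. The shares over all genes tested were 38.6% higher in lung and 33% in kidney. Lpcat1, which makes the saturated phosphatidylcholine of surfactant, gave 12825, 13395, 12199.5, 13986 and 12113 in lung and 548, 666, 745, 703 and 813 in kidney, and Fasn, fatty acid synthase, was 7.33-fold higher in lung. Cyp51, of sterol synthesis, gave 3460.1, 3800.1, 3451, 3881 and 4635 in kidney and 446, 514, 430.1, 353 and 450.4 in lung, and Hmgcs1, of the same pathway, was 3.94-fold higher in kidney.

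Lung array 3 stood apart through genes of other tissues. Acta1, skeletal muscle actin, gave 4885, 205, 15094, 642 and 1703 on lung arrays 1 to 5 and 25.1, 9.5, 11.4, 7.1 and 31.6 on kidney arrays. Ighm, the immunoglobulin heavy chain, gave 1082, 923, 20691, 1560.2 and 3945, and Adipoq, adiponectin of fat cells, gave 698, 457, 7339, 289 and 1935 on lung arrays 1 to 5. Array 3 was the highest in each, and lung arrays 1 and 5 came next in muscle and fat genes. The mean log2 level of the 16 skeletal muscle genes ran from 7.13 to 11.6 on lung arrays and from 6.14 to 6.59 on kidney arrays, and 14 of the 16 were called higher in lung with a median of -2.78, or -2.26 without array 3. Without it the log2 difference of Acta1 moved from -5.83 to -5.06, of Tnni2 from -4.36 to -3.61, of Tnnc2 from -4.20 to -3.35, of Ighm from -4.11 to -3.37, of Jchain from -3.39 to -2.64 and of Adipoq from -3.47 to -2.78, each still called. Lung array 2 had the least muscle signal, and without it Acta1 read -6.58, Tnnc2 -5.16 and Tnni2 -5.01. Adipoq read -2.89 without kidney array 2. B and plasma cell genes had levels of 8.37 to 10.1 on lung arrays, highest on array 3, and adipocyte genes 7.99 to 9.89 on lung arrays against 8.03 to 8.90 on kidney arrays, so the fat signal overlapped between the organs.

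Heart muscle genes were higher in lung for 14 of 18 tested and in kidney for none, with a median of -2.97. Tnnt2, cardiac troponin T, gave 1386, 1040.0, 370.0, 804 and 1912 in lung and 35.2, 6.9, 8.4, 3.3 and 2.6 in kidney. Myh6, cardiac myosin, gave 1183, 856, 128, 762 and 2291 in lung and 36.8, 39.2, 17.5, 51.7 and 38 in kidney. For these genes array 3 was the lowest of the lung arrays and array 5 the highest, and without array 3 the log2 difference of Myh6 went from -3.91 to -4.51. Of thymocyte genes 6 of 7 tested were higher in lung and none in kidney, and Rag1, which only developing lymphocytes use, had a log2 difference of -2.59 (adjusted p = 0.004) with lung signals from 0.8 to 268, or -3.31 without lung array 4, the lowest. Of 10 adrenal genes tested 3 were higher in kidney, none by 2-fold, and 1 in lung, against 33% and 38.6% of all genes tested. Cyp11b1, of corticosteroid synthesis, had a log2 difference of 0.94, a call lost without kidney array 2 and in both fits over many groups. How much adjoining tissue the organ samples held, and its part in these differences, was not tested.

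**Figure D4:**
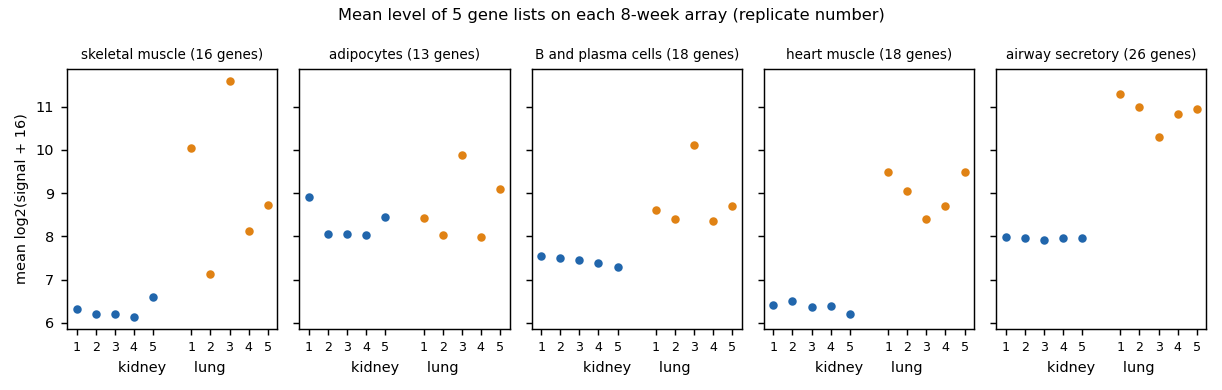
Mean log2(signal + 16) of the genes of 5 lists on each of the 5 kidney and 5 lung arrays, numbered by replicate. Skeletal muscle, adipocyte and B and plasma cell lists peak on lung array 3, while heart muscle and airway secretory genes are lowest there among the lung arrays.

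Some genes usually assigned to liver were higher in kidney, 12 of 17 tested, with 2 higher in lung. Ttr, transthyretin, gave 6133, 5497, 4516, 4741 and 5637 in kidney and 45.2, 59.8, 48.5, 26.3 and 43.9 in lung. Apob, of lipoproteins, was 19.7-fold and Alb, albumin, 3.91-fold higher in kidney, and Alb gave 649 to 932 on the kidney arrays. Genes known to be male-biased in mouse kidney had 16 of 20 tested higher in kidney, 3 in lung and 1 not called, with a median of 2.66. Kap, the androgen-regulated kidney protein, gave 36643, 31325, 28299, 32902 and 46527 in kidney and 472, 513, 342, 339 and 572 in lung, a 76.3-fold difference.

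Immediate early genes, which rise within minutes of a stimulus, were higher in lung for 20 of 24 tested, 18 by at least 2-fold, with 1 higher in kidney and a median of -1.83. Fos gave 2729, 4324, 2593, 2679 and 2785 in lung and 160.1, 119, 174, 115 and 201 in kidney, 17.9-fold higher in lung (adjusted p = 1.9e-09). Jun was 13.3-fold and Gadd45b 18.4-fold higher in lung. The gene higher in kidney was Gadd45g, at 3.23-fold. At 4 weeks 21 of 24 were called higher in lung and 1 in kidney, with a median of -1.51.

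Glucocorticoid response genes had 13 of 20 tested higher in lung, 5 in kidney and 2 not called, with a median of -0.62. Zbtb16, a zinc finger factor induced by glucocorticoids, gave 2575, 2569.6, 3484, 4495 and 4050.2 in lung and 139, 251, 604, 589.5 and 497 in kidney, and Tsc22d3, known as GILZ, was 4.03-fold higher in lung. Circadian clock genes had 12 of 19 higher in lung, 4 in kidney and 3 not called. The glucocorticoid and clock counts stand beside 38.6% of all genes tested called higher in lung and 33% in kidney. Cry1, a repressor of the clock, was 3.58-fold higher in lung, and the output factors Hlf and Dbp were 3.65-fold and 2.59-fold higher in kidney. The labels do not give the time of day of collection.

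Growth hormone and IGF genes had 13 of 24 tested higher in kidney, 8 in lung and 3 not called. Among all genes tested 33% were called higher in kidney and 38.6% in lung. Ghr, the growth hormone receptor, gave 9958, 11616, 12456, 13379 and 16597 in kidney and 2719, 2506, 2816, 2421 and 2321 in lung, and Igfbp1 was 51.2-fold higher in kidney. Igfbp2 gave 3847, 5604, 4659, 4579 and 4439.6 in lung and 247, 169, 209, 155 and 109 in kidney. Igf1 gave 1192, 1015, 1072, 951 and 907 in kidney and 877, 897, 1154, 1158 and 1022 in lung, with overlapping arrays (log2 difference 0.01, SE 0.11, adjusted p = 0.93), and its probe sets differ in sign. Ribosomal protein genes differed little, with 18 of 27 not called, 8 higher in lung, 1 in kidney and none by 2-fold. Actb, beta actin, gave 23228 to 29139 in kidney and 23578 to 30381 in lung (adjusted p = 0.33), and quantile normalization called it higher in lung (-0.33, adjusted p = 0.00071).

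The organ difference at 8 weeks was set against that at 4 weeks, measured on other arrays of 5 kidneys and 5 lungs. At 4 weeks 9358 of 14109 genes were called (66.3%). Of the 10080 genes called at 8 weeks 8354 were called in the same direction at 4 weeks, and 9 in the opposite one. Among the genes called with 2-fold or more at 8 weeks and tested at 4 weeks, 4396 of 4506 were called in the same direction at 4 weeks. The direct test of the change in the organ difference between the ages called 88 of 14361 genes (0.613%), 38 toward kidney (0.265%) and 50 toward lung (0.348%), and 1592 at an unadjusted p under 0.05. That count depends on single arrays. It was 37 without kidney 8-week array 2, 57 and 58 without arrays 1 and 3 of that group, and 46 without lung 8-week array 3. It was 39, 42 and 48 without lung 4-week arrays 2, 3 and 4, and 56 without either of the kidney 4-week arrays 1 and 5. With no filter on dim genes it was 41, with the mean of all probe sets 54 and with array weights 137.

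Cell cycle genes changed between the ages more often than any other of the 61 lists, by the count of their members called in the direct test. At 8 weeks 30 of 41 cell cycle genes tested were higher in lung, 3 in kidney and 8 were not called, with a median of -0.78. At 4 weeks 15 of 42 were higher in lung and 5 in kidney, with a median of -0.27. In the direct test 10 of 42 changed toward lung and none toward kidney, where 0.348% of all genes tested changed toward lung, and no other list had more than 4 called members. Birc5, survivin, gave 12.1, 13.1, 19.5, 13 and 17 in kidney and 205, 250.2, 239, 259.5 and 184 in lung at 8 weeks, and 210.0, 253, 199, 155 and 199 in kidney and 221, 226, 257, 219 and 272 in lung at 4 weeks. Lung signals overlapped between the ages, and all kidney signals at 8 weeks lay below all kidney signals at 4 weeks. The log2 organ difference went from -0.23 at 4 weeks to -2.97 at 8 weeks, a change of -2.75 (SE 0.16, adjusted p = 1.2e-08). Cenpa, the centromere histone, changed by -1.90 (adjusted p = 0.0049) and Mki67, the proliferation antigen Ki-67, by -1.39 (adjusted p = 0.037). Mki67 was 114 ± 44.7 in kidney and 413 ± 91.4 in lung at 8 weeks (mean ± SD, n = 5), and 337 ± 79.8 and 444 ± 81.8 at 4 weeks.

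Other genes with large changes toward lung were Serpina6, the corticosteroid-binding globulin, whose kidney signal was 1211 ± 443 at 4 weeks and 86 ± 34.7 at 8 weeks (mean ± SD, n = 5), with 92 ± 23.4 and 82.9 ± 42.2 in lung (change -3.31, adjusted p = 0.0028). Mreg, melanoregulin, changed by -1.75 (adjusted p = 0.0001) and Fignl1, an ATPase of DNA repair whose probe sets differ in sign, by -1.92 (adjusted p = 0.034). At 8 weeks Mreg was not called (log2 difference -0.13, adjusted p = 0.43). The largest changes toward kidney were those of Bhmt, which remethylates homocysteine with betaine, at 2.20 (adjusted p = 0.045), Akr1c14, a hydroxysteroid dehydrogenase, at 2.09 (adjusted p = 0.0004), Tssk4, a kinase known from testis, at 2.01 (adjusted p = 0.036), and Dpys, of pyrimidine breakdown, at 1.85 (adjusted p = 0.0028). Akr1c14 was higher in lung at 8 weeks (log2 difference -0.87, adjusted p = 0.001), so its lung excess became smaller with age. Bhmt in kidney was 351, 292, 321, 353 and 211 at 4 weeks and 1686, 2044, 1940.2, 2015 and 2210.3 at 8 weeks, with no overlap between the ages. The calls of Bhmt and Tssk4 were lost under 25 of 31 and 16 of 29 alternative settings, with adjusted p of up to 0.33 and 0.08. That of Fignl1 was lost under 12 of 30 and its sign turned under 1, the choice of its other probe set, at 0.18 (adjusted p = 0.91). That of Cenpa was lost under 1 of 31, the mean of its probe sets, and Birc5, Akr1c14, Dpys, Esm1, Serpina6 and Mreg were called under all that could be run.

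Esm1, endocan of endothelial cells, was among the 9 genes called in opposite directions at the 2 ages and had the largest difference of these at each age. It gave 304, 289, 220.0, 212 and 205 in kidney and 543, 461, 308, 408 and 374 in lung at 4 weeks, and 531, 572, 679, 528 and 519 in kidney and 296, 244, 287, 264 and 215 in lung at 8 weeks. Lung was higher at 4 weeks (log2 difference -0.72, adjusted p = 0.0021) and kidney at 8 weeks (1.07, adjusted p = 3.3e-06), and the change was 1.80 (SE 0.20, adjusted p = 0.0001). The other 8 were Ankrd29, Arl16, Ceacam1, Cox6b2, Gtf3c4, Rabep2, Rrm2 and Tril, and Rrm2, a subunit of ribonucleotide reductase, went from a log2 difference of 0.38 to -0.92. The change passed the direct test for 7 of the 9, all but Ankrd29 and Arl16. That test uses the same arrays by which the 9 were picked, so it is not separate support. With the mean of all probe sets of a gene, Ceacam1 read -0.03 and Tril -0.06 at 8 weeks, and neither was called. The 8-week call of Rabep2 was lost under 11 of 25 alternative settings (adjusted p of up to 0.36), among them without kidney array 1, 2 or 4 or lung array 2, 3 or 5. That of Arl16 was lost under 2 of 23, and those of Ankrd29 and Gtf3c4 under 1 of 25 each, a block over the 3 description numbers found in both organs. That of Tril was also lost without lung array 3.

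**Figure D5:**
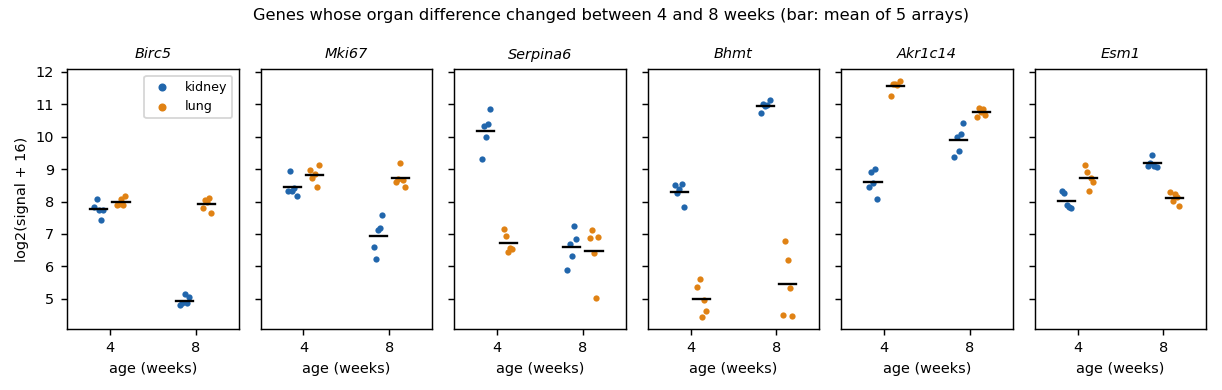
Signals on a log2(signal + 16) axis at 4 and 8 weeks in kidney (blue) and lung (orange) for 6 genes whose organ difference changed between the ages, 5 arrays per group as points with the group mean as a bar. In kidney Birc5, Mki67 and Serpina6 are lower at 8 weeks and Bhmt, Akr1c14 and Esm1 higher, while in lung Akr1c14 and Esm1 are lower at 8 weeks.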

How the data were processed

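The deposited table holds 1 intensity per probe set and array on a linear scale, and its values show that the authors scaled each array to a mean of 500 after trimming 2% at each end. The submitters' processing notes name RMA and Partek 6.6 without their roles, and the summary method is not given in the sources used here. Of 45101 probe sets, 34945 had 1 gene symbol in the platform annotation, 932 several and 9211 none, and the brightest probe set over all 40 arrays stood for each of 18193 genes. Intensities were taken as log2(signal + 16), and limma 3.58.1 in R 4.3.3 (lmFit, eBayes, Benjamini-Hochberg over all genes tested, threshold 0.05) was fitted to the arrays compared. Genes entered where the highest group mean reached 117.9, so list members dim in both organs are in no count. A member under that floor in 1 organ entered through the other, which partly sets the direction of its difference. On simulated data with 200 changed genes among 14088, the fit recovered 82.1% of 2-fold and 97% of 4-fold changes, and for the change between ages 74.6% and 93.9% among 14361. Few genes were changed there, whereas 71.6% were called in the 8-week comparison. The Benjamini-Hochberg cutoff depends on that share, so the 8-week rates do not give the power of that comparison. All columns of the table were used.

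Of 1547 list entries in 61 lists, 1403 matched a gene on the array, 6 of them through an older symbol. The members and lists were chosen with earlier results of these data known. Named were the 15 largest differences each way without overlap between arrays, up to 4 members of each list by size, fixed markers, family members, and the 5 largest changes each way between ages. Outside that rule, and chosen after their values were seen, are Ankrd29, Arl16, Blnk, Bpifa1, Ceacam1, Ces1f, Col14a1, Col15a1, Col18a1, Col4a3, Col4a4, Cox4i2, Cox6b2, Cox8b, Cyp24a1, Emcn, Fmo1, Fmo2, Foxm1, Gadd45g, Grhl2, Gtf3c4, Id2, Irx1, Irx2, Irx3, Lpl, Nr2f2, Pck2, Pigr, Pvalb, Rabep2, Rrm2, Scnn1a, Scnn1b, Scnn1g, Slc27a3, Slco4c1, Sult1d1, Tat, Tril, Trpm6, Ugt3a1, Wnk1 and Wt1. Probe sets that can also detect related transcripts stood for Ager, Bhmt2, Ces1f, Cldn10, Cox8a, Cubn, Cyp2b10, Ghr, Glyat, Hnf4a, Hoxa5, Idh1, Ighm, Klk1, Ldhb, Lrp2, Rrm2, Ttr, Ugt3a1 and Wt1. Near-identical copies make Cyp2d26, Cyp4a14, Akr1c21, Slc22a19 and Klk1 uncertain as single genes.

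Kidney and lung arrays share replicate numbers in their titles. The deviations of same-numbered arrays from their group means correlated at -0.0273 to 0.0182 over 5 pairs, and by the numbers in the descriptions at -0.0044 to 0.0296 over 3, so neither number was taken to pair samples. So few pairs cannot show whether an animal was shared. Alternatives covered scaling, the added constant, the filter on dim genes, the choice of probe set, the fit, a replicate block and leaving out each array. List counts without lung array 3 were added after the data were seen.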

Additional observations from a re-analysis of the deposited data

Results flagged for a closer look

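Within each organ at 8 weeks, 1 array lay apart from the other 4 for 38 of the 452 gene and organ pairs looked at, and for 4 of 62 lists. The rule flags about 1 in 20 groups of independent values by chance. The genes share arrays and were partly chosen after their values were seen, so that rate is no yardstick for these counts. Kidney array 5 was the highest of its group for 12 genes and 1 list. Its signals were 29139 for Actb, 20964 for Cltrn, 22919 for Cyp2j5, 31173 for Egf, 22389 for Hao2, 3238 for Hoxa9, 21809 for Idh1, 181 for Lama4, 16 for Rag1, 30348 for Spink1, 15731 for Sult1d1 and 19289 for Ugt3a2, and the mean log2 level of the oxidative phosphorylation list was 13.54 there against 13.26 to 13.34 on the others. It was the lowest for Emx2 at 761 and Foxc2 at 225. Its actin 3' to 5' difference of 0.985 and hybridisation control level of 12.9 (log2) were the highest of the 10 arrays, and their part in this was not tested.

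By the same rule lung array 3 was the highest of its group for Atp5g1 at 1109.8, Blnk at 805, Gldc at 28.2 and Jchain at 8248. It was also so for the B and plasma cell list at 10.11 and the amino acid metabolism list at 7.89. Acta1, Ighm and Adipoq peaked on it too but were not flagged. Kidney array 1 was the highest for Cdh5 at 547, Col4a4 at 4119, Cox6b2 at 485, Hoxa11 at 516, Pck2 at 449 and Tnnt2 at 35.2, and the lowest for Cyp11b1 at 93.6 and Nr1h4 at 1315. Lung array 2 was the highest for Chil3 at 15059, Fos at 4324 and Hgd at 59.3. The other arrays apart from their group were kidney array 2, with 485 for Cyp24a1 and 1092 for Scnn1g, and kidney array 3, with 1475 for Nr2f2 and 7.9 for the airway secretory list. Lung array 1 was the highest for Ugt3a2 at 132 and the lowest for Col4a3 at 1461 and Slc27a3 at 24.5. Lung array 5 gave 35.8 for Cubn and 53.8 for Slc34a3, and lung array 4 gave 0.8 for Rag1 against 129 to 268 on the other lung arrays.

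The organ difference changed between 4 and 8 weeks, by limma's test of the change itself, for 22 of the genes named. The changes toward kidney, on the log2 scale, were 2.20 for Bhmt, 2.09 for Akr1c14, 2.01 for Tssk4, 1.85 for Dpys, 1.80 for Esm1, 1.54 for Apob, 1.34 for Mfap4, 1.31 for Pigr, 0.81 for Ceacam1, 0.72 for Alb, 0.72 for Hlf and 0.72 for Tril. Mfap4 and Akr1c14 were higher in lung at both ages, so their differences became smaller. The changes toward lung were -3.31 for Serpina6, -2.75 for Birc5, -1.92 for Fignl1, -1.90 for Cenpa, -1.75 for Mreg, -1.39 for Mki67, -1.31 for Rrm2, -0.91 for Cox6b2, -0.80 for Gtf3c4 and -0.51 for Rabep2. Mreg was not called between the organs at 8 weeks.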

How the results depend on the processing

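The counts of genes called at 8 weeks moved by less than 1.5 times under every alternative run, from 8262 with the 3 description numbers found in both organs as a block to 10677 with no filter on dim genes, and from 9713 to 10077 with single arrays left out. The count called in the same direction at 4 weeks ran from 8044 to 8700 with single arrays left out. The 88 genes whose organ difference changed between the ages became 41 with no filter, 54 with the mean of all probe sets and 137 with array weights, and ran from 37 to 127 with single arrays left out. Of 225 named genes, 190 kept their direction and their side of the threshold at 8 weeks under all alternatives that could be run for them. In the fit over all 40 arrays 19 named genes were no longer called. Without 2 arrays from 1 week of age that stood apart, that fit lost the calls of Arl16, Col4a4 and Cyp11b1 only. Signs turned with the mean of all probe sets for Ceacam1 (-0.03), Grhl2 (0.23), Tril (-0.06) and Wnk1 (-1.12), and with the probe set brightest on the arrays compared for Fignl1 (0.34 at 8 weeks, 0.18 for the change between ages) and Hoxa5 (-0.38). These 2 alternatives read other probes of the same gene. No list median given in the text changed sign.

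With the title number as a replicate block, 9865 genes were called at 8 weeks and 60 changed between the ages. The description number as a random block gave 10142, with a consensus correlation of 0.0374. The block ended the calls of Col14a1 and Rabep2 at 8 weeks and of Bhmt, Fignl1 and Tssk4 between the ages, and the block over 3 description numbers, which uses 6 arrays, those of 7 named genes at 8 weeks. The arrays share only a number, so these losses are not read as weaker effects.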
